A study of Mus musculus with 4 samples.

Results

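The Cyp4a genes encode cytochrome P450 enzymes that hydroxylate fatty acids at or next to the methyl end of the chain. The 6 mouse genes described here are Cyp4a10, Cyp4a14, Cyp4a31, Cyp4a32, Cyp4a12a and Cyp4a12b, taken as every non-control probe of the array whose RefSeq accession maps to one of those symbols. This gave 7 probes for 5 of the 6 genes, among 41174 probes and 31077 genes tested. Cyp4a10 had 3 probes, Cyp4a14, Cyp4a31, Cyp4a12a and Cyp4a12b had 1 each, and Cyp4a32 had none that could be assigned. All 5 measured genes passed the filter on dim probes, and each of the 7 probes was well above background in both channels on all 4 arrays. The genes were chosen by name with their log2 ratios of treated over untreated liver on these same arrays already in view, so their ratios are given as a description and without a test.

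Omega-hydroxylation is a side route of fatty acid breakdown, in which a P450 oxidises the far end of the chain and dehydrogenases turn it into a dicarboxylic acid that peroxisomes can shorten. In mouse liver Cyp4a10 and Cyp4a14 are classical targets of PPAR-alpha, the nuclear receptor that fatty acids and fibrate drugs activate and that runs the fasting programme of lipid oxidation. Cyp4a12a is known as a male-biased enzyme under androgen and growth hormone control, and converts arachidonic acid to a hydroxylated product that constricts small vessels.

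Livers came from male C57Bl/6 mice at 3 months of age, all of which carried a mutant Wrn protein, the RecQ helicase affected in Werner syndrome. The treated mice had drunk water with 0.4% vitamin C since weaning, and the controls were untreated Wrn mutant mice, so neither group had normal Wrn. Each of the 4 arrays set 1 treated liver, labelled with Cy3, against 1 untreated liver, labelled with Cy5, and the labels call the 4 pairs biological replicates. The series asked how vitamin C changes gene expression in the liver of such mice.

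Across the series, median spot intensity was 379.5 to 530 in Cy3 and 813 to 962 in Cy5, no spot was saturated (0 on each array), and repeat spots of 245 probes differed with an SD of 0.0733 to 0.0825 in log2 ratio. The labelled tissue matched its markers: 9 of 10 hepatocyte genes were measured, at mean log2 intensities of 13.3 to 18.0, and 5 of 6 kidney genes lay between 7.36 and 10.8. The values below compare each treated liver with its untreated partner as a log2 ratio, summarised as mean ± SD of n = 4 arrays. A positive ratio means a higher signal in the treated liver going by the dye labels, which is opposite to the sign of the deposited log2 table, with which the ratios correlated across probes at r = -0.968, -0.950, -0.974 and -0.980 on replicates 1 to 4. With 0 dye-swapped arrays, 1 slide and 1 scan time, an effect of the dye on a probe and an effect of the treatment cannot be told apart. In whole liver, fewer cells of a type and less RNA per cell cannot be told apart either. Over all genes, limma with Benjamini-Hochberg adjustment called 0 of 31077 at 0.05, with a smallest adjusted p of 0.144, and 8603 (27.7%) had an unadjusted p under 0.05, of which 3463 were higher and 5140 lower. Leaving out replicate 2 moved the number of adjusted calls to 8764 (28.2%), whereas it stayed at 0 without replicate 1, 3 or 4. The adjusted p-values given below without replicate 2 come from that fit, in which 28.2% of all genes passed.

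Cyp4a14 had the widest spread of all genes tested. Its ratio was 3.49 on replicate 1, -1.57 on replicate 2, 3.92 on replicate 3 and 1.43 on replicate 4. Treated liver was thus far above its untreated partner in pairs 1 and 3, moderately above it in pair 4 and below it in pair 2. As folds, the treated liver held 11.3 times, 0.337 times, 15.1 times and 2.69 times the signal of its partner. The mean was 1.82 ± 2.51, or 3.53-fold, and the SD was larger than the mean. No other gene among the 31077 had a larger SD, against a median SD of 0.126.

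The levels in single livers show where that spread arose. On the normalized log2 scale Cyp4a14 stood at 15.41, 12.59, 15.32 and 12.67 in treated livers 1 to 4, and at 11.91, 14.15, 11.40 and 11.25 in untreated livers 1 to 4. Treated livers 1 and 3 were the highest, untreated liver 2 came next, and the groups overlapped. The spread within a group was as wide in both: the highest and the lowest treated liver differed 7.06-fold and the highest and lowest untreated liver 7.51-fold. Untreated liver 2 thus carried a high Cyp4a14 signal with no vitamin C in its water.

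**Figure D1:**
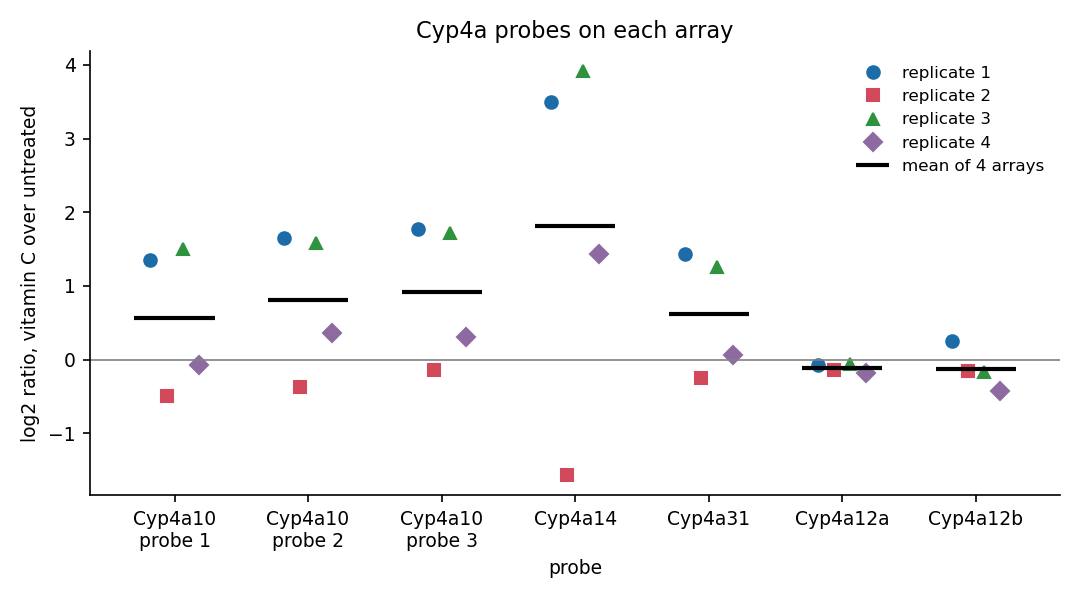
Log2 ratio of vitamin C over untreated (vertical axis) for each of the 7 Cyp4a probes (horizontal axis), with 1 point per array and a bar at the mean of 4 arrays. Replicates 1 and 3 lie between 1.26 and 3.92 for the 5 probes of Cyp4a10, Cyp4a14 and Cyp4a31, replicate 2 lies below 0 for all 7 probes, and the probes of Cyp4a12a and Cyp4a12b stay within 0.42 of 0.

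Cyp4a10, the other well known PPAR-alpha target of the family, had ratios of 1.35, -0.49, 1.50 and -0.07 on replicates 1 to 4 at its brightest probe, a mean of 0.57 ± 1.00. Its second probe read 1.66, -0.38, 1.59 and 0.37, a mean of 0.81 ± 0.99. The third probe read 1.78, -0.14, 1.72 and 0.30, a mean of 0.91 ± 0.98. The 3 probes put the arrays in nearly the same order and lay within 0.22 to 0.44 of each other on an array. They split on replicate 4, where the brightest probe was just below 0 and the others above it, so the sign of Cyp4a10 in that pair is not settled. The levels at the brightest probe were 15.43, 14.46, 15.18 and 13.64 in treated livers 1 to 4 and 14.08, 14.96, 13.68 and 13.71 in untreated livers 1 to 4. The groups overlapped, and the lowest of the 8 livers was a treated one.

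Cyp4a31, a close copy of Cyp4a10 in the same gene cluster, followed it. Its ratios were 1.43, -0.25, 1.26 and 0.06 on replicates 1 to 4, with a mean of 0.63 ± 0.84. Levels were 9.25, 8.15, 8.71 and 7.37 in treated livers 1 to 4 and 7.82, 8.40, 7.45 and 7.31 in untreated livers 1 to 4. Here too the groups overlapped, with treated livers 1 and 3 on top and untreated liver 2 after them. Within each array the ratio of Cyp4a10 minus that of Cyp4a31 was -0.08, -0.24, 0.24 and -0.13, a mean of -0.05 ± 0.21. Cyp4a10, Cyp4a31 and Cyp4a32 are near-identical in sequence and the probe sequences were not used here, so how much signal each probe takes from the other copies was not tested.

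In all 5 probes of Cyp4a10, Cyp4a14 and Cyp4a31, the 3 highest of 8 livers were treated 1, treated 3 and untreated 2, in that order. The size of the swing differed between the genes: the ratio of Cyp4a14 minus that of Cyp4a10 was 2.15, -1.08, 2.42 and 1.50 on replicates 1 to 4, so Cyp4a14 lay further from 0 on each array. By SD, Cyp4a10 ranked 60 and Cyp4a31 ranked 95 among all genes.

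**Figure D2:**
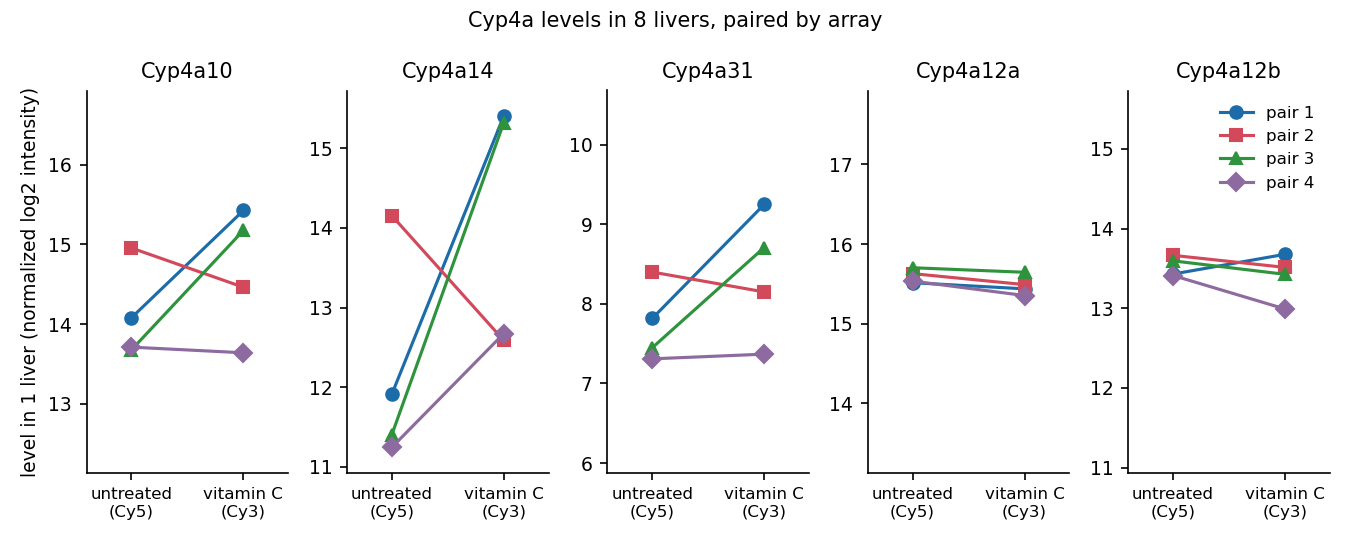
Normalized log2 intensity (vertical axis) of the brightest probe of each of 5 Cyp4a genes in the untreated and the vitamin C liver of each pair, joined by a line. All panels span the same number of log2 units, so slopes can be compared while heights between panels cannot. For Cyp4a14 the lines of pairs 1 and 3 run up from 11.91 and 11.40 to 15.41 and 15.32 while the line of pair 2 runs down from 14.15 to 12.59, and for Cyp4a12a all 4 lines are nearly flat.

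Cyp4a12a behaved otherwise. This male-biased arachidonate hydroxylase had ratios of -0.08, -0.14, -0.06 and -0.18 on replicates 1 to 4, a mean of -0.11 ± 0.056. It was slightly below 0 on every array, as were 16.1% of all genes, at sizes of 0.06 to 0.18 where repeat spots of a probe differed with an SD of up to 0.0825. Levels were 15.44, 15.49, 15.65 and 15.35 in treated livers and 15.51, 15.63, 15.70 and 15.53 in untreated livers 1 to 4, and the groups overlapped. The highest and lowest liver differed 1.22-fold among the treated and 1.14-fold among the untreated. Its SD ranked 27248 of 31077, near the quiet end of the table, whereas that of Cyp4a14 ranked first.

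Cyp4a12b, the tandem copy of Cyp4a12a, had ratios of 0.25, -0.15, -0.17 and -0.42 on replicates 1 to 4, a mean of -0.12 ± 0.28. Its levels were 13.68, 13.51, 13.43 and 12.99 in treated livers and 13.43, 13.66, 13.60 and 13.41 in untreated livers 1 to 4. The groups overlapped, and neither copy shared the order of livers seen for Cyp4a14. The 2 copies are too similar for their probes to be taken as separate without the probe sequences. Cyp4a14 minus Cyp4a12a was 3.57, -1.43, 3.98 and 1.61 on replicates 1 to 4, so Cyp4a14 lay above Cyp4a12a on 3 arrays and below it on replicate 2.

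By counts, 0 of the 5 measured genes passed the adjusted threshold (0% of all genes) and 0 of 5 had an unadjusted p under 0.05 (27.7% of all genes). A mean ratio of at least 0.5 was found for 3 of 5, against 0.476% of all genes. Replicates 1 and 3 both lay above replicate 2 in 4 of 5, against 42.7% of all genes. These shares use the ratios that chose the genes and are printed for scale. Genes of like intensity had median ratios between -0.025 and 0.033 around the 5 probes.

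Means depended on which pairs were averaged. Without replicate 2 the mean of Cyp4a14 was 2.95, that of Cyp4a10 was 0.93 and that of Cyp4a31 was 0.92. Without replicate 3 they were 1.12, 0.26 and 0.41, and without replicate 1 they were 1.26, 0.31 and 0.36. The sign of each of these means held in every case. On single arrays, no Cyp4a gene read at its brightest probe changed sign under any of the 7 other ways of preparing the ratios, of which leaving out saturated spots changed nothing because there were 0. With the mean of its 3 probes, Cyp4a10 read 0.20 in place of -0.07 on replicate 4.

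**Figure D3:**
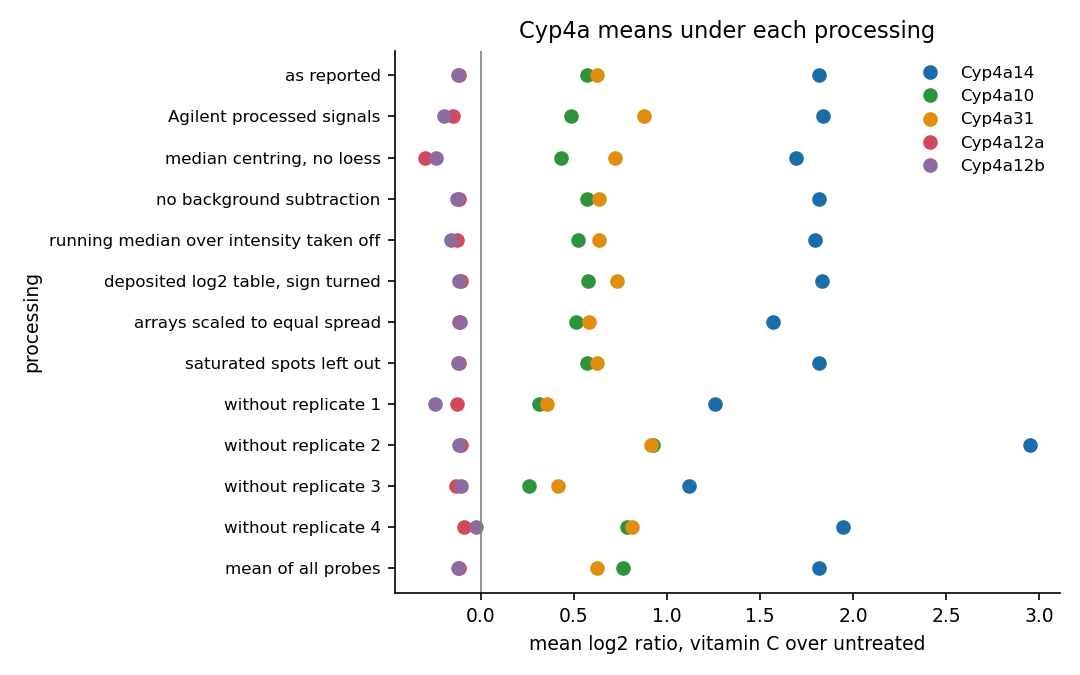
Mean log2 ratio of vitamin C over untreated (horizontal axis) of 5 Cyp4a genes as reported and under 12 other ways of processing (vertical axis). Cyp4a14 ranges from 1.12 to 2.95 and Cyp4a10 from 0.26 to 0.93, both set by which replicate is left out, and Cyp4a12a and Cyp4a12b stay below 0.

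The receptor and its partners, PPAR-alpha with its RXR dimer partners, coactivators and corepressors, lay near 0 as a list. Of 17 genes, 0 passed the adjusted threshold and 0 had an unadjusted p under 0.05. The median ratio was 0.0074 against -0.0148 for all genes. With median centring in place of loess, the median was -0.12 against -0.0357 for all genes. Then 5 of 17 were lower at an unadjusted p under 0.05 and 1 at an adjusted one, where 31% of all genes passed. Ppara itself, which encodes PPAR-alpha, read 0.29, -0.34, 0.04 and -0.20, a mean of -0.05 ± 0.28 (limma adjusted p = 0.775, and 0.764 without replicate 2). It was highest on replicate 1 and lowest on replicate 2. Pparg, the receptor of adipocyte differentiation, read 0.43, -0.11, 0.67 and 0.09 (0.27 ± 0.35, limma adjusted p = 0.231, and 0.0578 without replicate 2). Lpin1, a phosphatidate phosphatase and coactivator, read -0.29, -0.61, 0.87 and 1.09, so replicates 3 and 4 stood above the others.

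Among 58 known PPAR-alpha target genes outside the family, all 58 measured, 0 passed the adjusted threshold, 12 were higher and 7 lower at an unadjusted p under 0.05 (32.8% against 27.7% of all genes), and the median ratio was 0.0953. Without replicate 2, 11 of the 58 were higher and 5 lower at an adjusted p under 0.05 (28.2% of all genes passed then). Replicates 1 and 3 both lay above replicate 2 in 45 of 58, or 77.6%, and both below it in 6, or 10.3%, against 42.7% and 37.3% of all genes. Under the 7 other ways of preparing the ratios, that first count was 41 to 49 of 58. At an unadjusted p under 0.05, the 12 higher and 7 lower became 9 and 17 with median centring in place of loess, 2 and 8 without replicate 1, and 3 and 8 without replicate 3. With median centring, 3 were higher and 11 lower at an adjusted p under 0.05, where 31% of all genes passed. These genes share the 8 livers with Cyp4a14, and the list was drawn up with earlier results known.

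Peroxisomal targets, which shorten long and dicarboxylic acids, had medians of 0.21, -0.18, 0.15 and -0.23 on replicates 1 to 4, with 2 higher and 2 lower of 17 at an unadjusted p under 0.05 (23.5%, against 27.7% of all genes). Acot3, a peroxisomal acyl-CoA thioesterase, came closest to Cyp4a14 at 2.18, -0.31, 2.42 and 0.59 (1.22 ± 1.30, limma adjusted p = 0.173, and 0.0268 without replicate 2). Abcd2, a peroxisomal fatty acid importer, read 1.098, -0.52, 1.35 and 1.96, with a mean of 0.97 at this probe and 0.42 at another. Both genes were low on replicate 2 and high on replicates 1 and 3. They parted on replicate 4, where Abcd2 had its highest ratio at its brightest probe and Acot3 lay well below its values on replicates 1 and 3. Hsd17b4, an enzyme of peroxisomal beta-oxidation, was below 0 on all 4 arrays at -0.29 ± 0.14 (limma adjusted p = 0.144, and 0.0474 without replicate 2).

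Mitochondrial and ketogenic targets had medians of 0.23, -0.07, 0.07 and -0.12, with 3 higher and 3 lower of 18 at an unadjusted p under 0.05 (33.3%, against 27.7% of all genes). Pdk4, the kinase that closes pyruvate dehydrogenase in fasting, read 0.76, -0.16, 0.92 and 0.49 (0.50 ± 0.47, limma adjusted p = 0.16, and 0.0102 without replicate 2). Cpt1a, the gate of mitochondrial fatty acid entry, read 0.20, -0.45, -0.10 and -0.04 (-0.10 ± 0.27, limma adjusted p = 0.571, and 0.827 without replicate 2). At this probe it was above 0 on replicate 1 and furthest below it on replicate 2. Another probe of Cpt1a read 0.47, -0.22, 0.07 and -0.002, with a mean of 0.08, so the sign of its mean depends on the probe. Acaa2, the last enzyme of mitochondrial beta-oxidation, was below 0 on all 4 arrays at -0.50 ± 0.20 (limma adjusted p = 0.144, and 0.0227 without replicate 2).

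Targets of lipid handling and secretion had a median of means of 0.20, and medians of 0.54, -0.01, 0.44 and -0.22 on replicates 1 to 4, with 7 higher and 2 lower of 23 at an unadjusted p under 0.05 (39.1%, against 27.7% of all genes). Cd36, a fatty acid transporter of the plasma membrane, read 1.05, -0.01, 1.73 and 0.90 (0.92 ± 0.72, limma adjusted p = 0.145, and 0.011 without replicate 2). Acot1, the cytosolic acyl-CoA thioesterase, read 1.26, -0.03, 1.77 and 1.05 (1.01 ± 0.76). Fgf21, the fasting hormone of the liver, read 0.56, -0.30, 0.48 and 0.95 (0.42 ± 0.53). All of these had their lowest ratio on replicate 2, as Cyp4a14 did. Krt23, a keratin induced in stressed liver, was above 0 on all 4 arrays at 1.53, 0.25, 1.75 and 1.40 (1.23 ± 0.67, limma adjusted p = 0.144). Vnn1, a pantetheinase, parted from them on replicate 4, with 1.34, -0.17, 1.17 and -0.62.

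**Figure D4:**
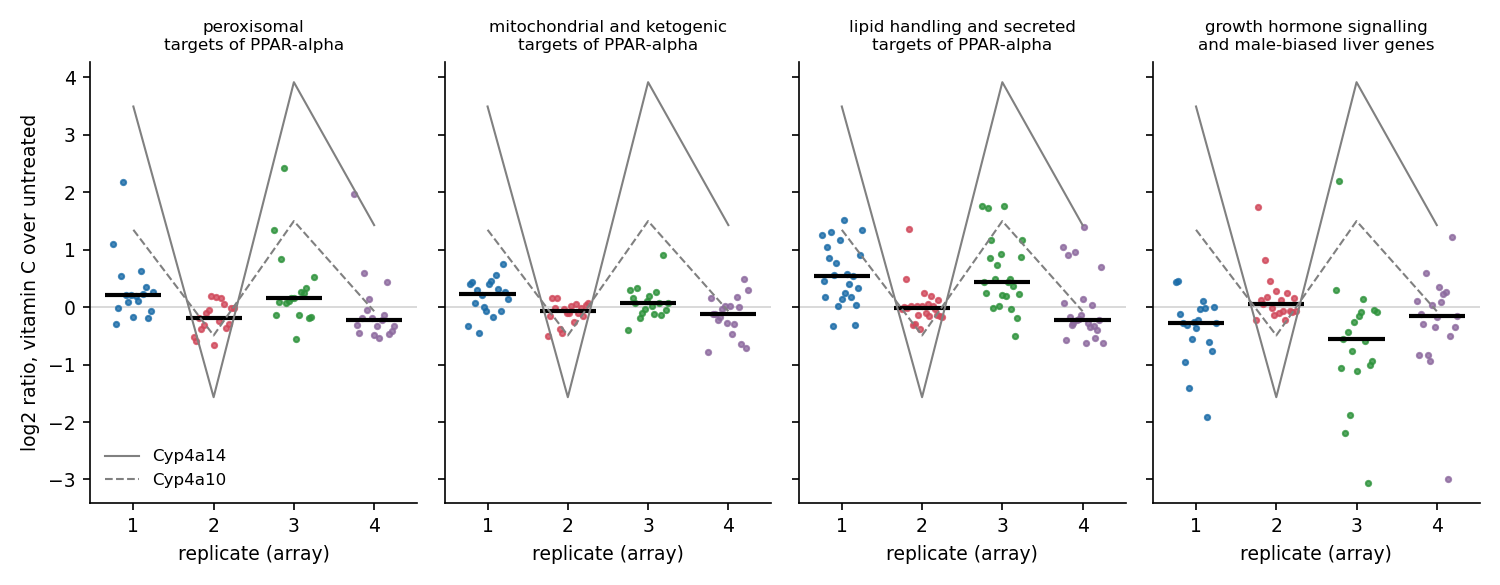
Log2 ratio of vitamin C over untreated (vertical axis) of each measured gene of 4 gene lists on each array (horizontal axis), with a black bar at the list's median and grey lines for Cyp4a14 (solid) and Cyp4a10 (dashed). The medians of the 3 lists of PPAR-alpha targets are higher on replicates 1 and 3 than on replicate 2, and the growth hormone and male-biased list has its lowest median, -0.55, on replicate 3 and its highest, 0.05, on replicate 2.

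The next list holds genes that serve omega-hydroxylation, by feeding the P450s or by taking up their products. Of these 15 redox partners and later enzymes, 2 were higher and 4 lower at an unadjusted p under 0.05 (40%, against 27.7% of all genes), 0 passed the adjusted threshold, and replicates 1 and 3 both lay above replicate 2 in 8 (53.3%, against 42.7% of all genes). Aldh3a2, the fatty aldehyde dehydrogenase that acts after omega-hydroxylation, read 0.70, -0.40, 0.77 and -0.43. Por, the reductase that feeds electrons to microsomal P450s, read 0.04, -0.62, 0.63 and 0.46. Both had positive ratios on replicates 1 and 3 and negative ones on replicate 2. Neither mean stood apart from 0 (limma adjusted p = 0.683 and 0.702, and 0.338 and 0.072 without replicate 2). Pgrmc1, a heme-binding partner of P450s, was below 0 on all 4 arrays at -0.45 ± 0.15 (limma adjusted p = 0.144, and 0.0174 without replicate 2). Aldh2, the mitochondrial aldehyde dehydrogenase, was below 0 on all 4 arrays at -0.84 ± 0.42 (limma adjusted p = 0.144, and 0.0127 without replicate 2).

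The rest of the Cyp4 family lay closer to 0 than Cyp4a14. Of 14 other Cyp4 genes, 9 were measured, 0 passed the adjusted threshold, 1 was higher and 0 lower at an unadjusted p under 0.05 (11.1%, against 27.7% of all genes), and the median ratio was 0.052. The gene with the unadjusted call was Cyp4f13, at 0.17 ± 0.069 (limma adjusted p = 0.145). Cyp4f14, which in mouse omega-hydroxylates leukotriene B, read 0.23, -0.14, 0.29 and 0.23, a narrow copy of the pattern with replicate 2 apart. Cyp4b1, which sits beside the Cyp4a cluster, read -0.05, -0.12, 0.50 and 0.87, so its 2 highest ratios were on replicates 3 and 4. Without replicate 2, 2 of the 9 were higher (Cyp4f13 and Cyp4f14) and 2 lower (Cyp4v3 and Cyp4f39) at an adjusted p under 0.05, in a fit where 28.2% of all genes passed.

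Other oxygenases of arachidonic acid and the epoxide hydrolases had a median of 0.0055, with 1 higher and 2 lower of 18 at an unadjusted p under 0.05 (16.7%, against 27.7% of all genes). Ephx2, the soluble epoxide hydrolase, was below 0 on all 4 arrays at -0.41 ± 0.21 (limma adjusted p = 0.144, and 0.0244 without replicate 2). Cyp2c38, an arachidonate epoxygenase in mouse, read 1.097, -0.26, 1.32 and 0.26, close to the values of Cyp4a10.

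Cyp4a12a belongs to the male-biased programme of the liver, which was described by a list of genes of growth hormone signalling and male bias. Of 22 listed, 19 were measured, with 0 higher and 6 lower at an unadjusted p under 0.05 (31.6%, against 27.7% of all genes), 0 at the adjusted threshold, and a median ratio of -0.25. Without replicate 2, 1 was higher and 6 were lower at an adjusted p under 0.05, in a fit where 28.2% of all genes passed. The order of arrays ran opposite to that of Cyp4a14: replicates 1 and 3 lay below replicate 2 in 15 of 19 (78.9%, against 37.3% of all genes) and above it in 2. Mup1, a major urinary protein, read -1.91, 0.25, -3.06 and -2.99 (-1.93 ± 1.55, limma adjusted p = 0.146, and 0.00976 without replicate 2). Cyp7b1, the male-biased oxysterol hydroxylase, read -1.40, 0.46, -1.88 and -0.94 (-0.94 ± 1.01). Both were above 0 only on replicate 2, where Cyp4a12a had -0.14. Bcl6, of the same list, differed from them at 0.46, 1.74, 2.20 and -0.83 (0.89 ± 1.36). Means were above 0 for 4 of the 19. The 13 measured female-biased genes had a median of 0.061, with 3 higher and 2 lower at an unadjusted p under 0.05 (38.5%, against 27.7% of all genes) and 0 at the adjusted threshold.

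By root mean square difference over the 4 arrays, the genes nearest to Cyp4a10 were 2010003K11Rik at 0.234, Cyp2c38 at 0.252, G0s2, an inhibitor of triglyceride lipase, at 0.305, Cidec, a lipid droplet protein, at 0.324, and Tox at 0.345. Of 16864 candidate genes, 25 lay within 0.5 of it. None came near to Cyp4a14, with 0 within 0.5: the nearest were Acot3 at 1.25, the female-biased P450 Cyp2b9 at 1.45, the lipoprotein receptor Vldlr at 1.47, and Igfbp1 and Rgs16 at 1.60. Cyp2b9 read 1.58, 0.49, 3.34 and 0.97, so it lacked the negative value on replicate 2, and its other probe had a mean of 0.30. For Cyp4a12a, by contrast, 15939 candidates lay within 0.5 and 1498 within 0.1, as for a gene with ratios close to 0.

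Markers of other cell types were set beside these values. Kupffer cell and macrophage markers had medians of -0.35, 0.28, 0.05 and 0.41 on replicates 1 to 4. Replicates 1 and 3 lay below replicate 2 in 7 of 7 measured of 8 listed, against 37.3% of all genes. Cyp4a14 had the opposite order on those arrays, though on replicates 3 and 4 it was above 0, as the Kupffer medians were. Their summed level was 15.67 to 16.47 in treated and 15.69 to 16.20 in untreated livers on the log2 scale. For the counts of replicates 1 and 3 above replicate 2 that follow, the share of all genes was 42.7%. Liver endothelial markers had replicates 1 and 3 above replicate 2 in 5 of 6, with medians of 0.05, -0.17, 0.11 and 0.14 and summed levels of 15.14 to 15.46 and 15.19 to 15.35. Adipocyte markers did so in 4 of 6, with medians of 0.06, 0.00, 0.12 and -0.06. Their summed levels were 12.79, 12.47, 12.59 and 11.80 in treated livers 1 to 4 and 12.02, 12.43, 11.92 and 11.89 in untreated livers 1 to 4, so treated livers 1 and 3 were the highest and untreated liver 2 was the highest of its group. Among them Cfd, the serine protease adipsin, read 2.02, -0.02, 1.88 and -1.13 and swung most, while Adipoq, the adiponectin gene, read -0.02, 0.17, -0.37 and -0.18. Hepatocyte markers had a median ratio of -0.26. Their summed level was lower in every treated liver, at 19.83 to 20.07, than in any untreated one, at 20.26 to 20.32. Such a sum gives most weight to the brightest markers, and all treated livers carried Cy3. Alb, the albumin gene and the brightest at 18.0, was below 0 on all 4 arrays at -0.70 ± 0.25 (limma adjusted p = 0.144). Of the 9 markers, 3 were below 0 on all 4 arrays. Means were above 0 for 2, Ttr at 0.11 and Hnf4a at 0.08. Summed erythroid markers stood at 18.41 and 18.67 in untreated livers 2 and 3, and between 17.21 and 17.72 in the other 6 livers. For cholangiocyte, stellate cell, T and NK cell, B cell, kidney and exocrine pancreas markers, medians on single arrays lay between -0.14 and 0.25, and replicates 1 and 3 lay above replicate 2 in 1 of 6, 4 of 6, 2 of 6, 3 of 4, 2 of 5 and 3 of 6. Each measured marker of all these lists was above background in both channels on all 4 arrays. Their part in the Cyp4a ratios was not tested.

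The Cyp4a genes lie in 1 cluster on chromosome 4. Over the 5 measured genes on either side of the cluster (10 in all, from the gene order of the RefSeq table), mean ratios ran from -0.18 to 0.30 and single ratios from -0.58 to 0.87. Of these 10, 2 had an unadjusted p under 0.05 (Cmpk1, a nucleotide kinase, and Efcab14), against 27.7% of all genes, and 0 had an adjusted one. In 5 of 10, replicates 1 and 3 lay above replicate 2, against 42.7% of all genes. The neighbours include Cyp4a29, a further Cyp4a gene, at 0.05 ± 0.13, and Stil, a centriole gene, at -0.04 ± 0.043.

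PPAR-alpha binds with RXR to a direct repeat of AGGTCA with 1 spacer base, that is AGGTCA, any base N, and AGGTCA again, searched on both strands of windows from 250 bases before to 50 after the start site (RefSeq, GRCm38.p6). Windows were at hand for 27025 genes, 48 of the 58 targets and 1 Cyp4a gene, Cyp4a32. With at most 2 mismatches the motif was found in 1190 windows (4.4%) and in 6 of 48 target windows (12.5%). With at most 3 it was found in 27.3% of all windows, 31.2% of target windows and that of Cyp4a32, so a match of that quality is common. The window of Cyp4a32 at chr4:115600688-115600987 on the plus strand is shown because it is the family member with a window; the capitals mark the match, which is on the minus strand with 3 mismatches, and the gene has no expression value here.
Cyp4a32: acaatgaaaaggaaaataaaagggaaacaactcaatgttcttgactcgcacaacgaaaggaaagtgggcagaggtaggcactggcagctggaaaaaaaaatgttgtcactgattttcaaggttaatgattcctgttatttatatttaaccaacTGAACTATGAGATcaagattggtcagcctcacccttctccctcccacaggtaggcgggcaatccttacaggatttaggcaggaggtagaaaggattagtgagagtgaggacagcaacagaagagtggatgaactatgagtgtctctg

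The 6 target stretches with at most 2 mismatches are shown because their genes were measured beside Cyp4a14. Each gives the match in capitals with 10 bases on either side, in the direction of the gene: Acot4 at chr12:84038356-84038388 (plus strand), Cd36 at chr5:17835937-17835969 (minus), Fabp1 at chr6:71199802-71199834 (plus), Mogat1 at chr1:78510999-78511031 (plus), Plin2 at chr4:86670262-86670294 (minus) and Slc25a20 at chr9:108662132-108662164 (plus).
Acot4: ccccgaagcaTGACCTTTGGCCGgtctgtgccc
Cd36: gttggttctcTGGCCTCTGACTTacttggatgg
Fabp1: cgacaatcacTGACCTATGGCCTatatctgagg
Mogat1: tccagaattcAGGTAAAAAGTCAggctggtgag
Plin2: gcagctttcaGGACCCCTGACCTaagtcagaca
Slc25a20: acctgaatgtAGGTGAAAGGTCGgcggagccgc

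Fabp1, the liver fatty acid binding protein, has the closest match, with 1 mismatch, and read -0.33, -0.31, -0.01 and -0.27. Cd36, with 2 mismatches, had the mean of 0.92 given above. Plin2, a lipid droplet coat protein, read 0.40, -0.15, 0.49 and -0.35, and Mogat1, a monoacylglycerol acyltransferase, read 0.59, 0.05, 0.44 and -0.28. Acot4, a peroxisomal thioesterase, had a mean of 0.03 and Slc25a20, the carnitine carrier of mitochondria, one of -0.11. Genes with a match thus had ratios on either side of 0.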

How the data were processed

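Livers of 4 treated and 4 untreated mice were hybridised in 4 pairs to Agilent mouse arrays with 2 colours. The deposited scanner files hold spot intensity values from Agilent Feature Extraction 10.5.1.1, and per the file headers also the log10 of the red to green ratio. The authors also deposited a table of log2 values, for which the submitters' processing notes name limma; its exact scale is not given in the sources used here, and its columns are centred near 0 (medians 0.00374, 0.00497, 0.00225 and 0.00136). Here the background was corrected by normexp (offset 50) on median signals, as mean signals were not among the columns given. Loess was applied within each array, and spots flagged as outliers (98 to 148 per array) were left out. Levels in single livers come from the same signals after between-array scaling of mean intensity (Aquantile). The accession of 25097 of 41174 probes (61%) matched 1 symbol of the RefSeq table, which is of another build (GRCm38.p6) than the array design, so no gene coordinates are given beyond the promoter windows.

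A gene was read at its brightest probe and kept if 1 channel or both were well above background on 3 or more arrays. Ratios of 31077 genes were tested against 0 with limma 3.58.1 in R 4.3.3 (Benjamini-Hochberg, threshold 0.05), and the pairing lies in the array ratio. The genes, lists and tests were chosen with earlier results of these data known. Named genes come from those with the 3 smallest p-values and 2 largest other means of each list, the 5 neighbours on either side of the cluster, the 5 genes most like Cyp4a10, Cyp4a14 and Cyp4a12a, and a few fixed ones; others were named after their values were seen, and 3 genes that the rule takes are not reported here by name, though list counts include them. The fit was also run on simulated data, in which values were drawn independently for each gene and array. That setting holds no shifts shared by many genes on an array, so it cannot tell how such shifts affect the calls. The alternatives tried were other background, normalization and probe rules, and each replicate left out. Python 3.11.15 was used for tables and figures.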

Additional observations from a re-analysis of the deposited data

Results flagged for a closer look

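Of 111 groups of 4 array values examined, 3 had 1 array far from the others by Dixon's criterion, where chance flags about 1 in 20. Cyp4f14 stood at -0.136 on replicate 2 against 0.230 to 0.286 on the others. Igfbp1 stood at -0.607 on replicate 2 against 1.49 to 1.60. Mob3c, a neighbour of the Cyp4a cluster, stood at -0.580 on replicate 1 against -0.0796 to -0.0154. The Cyp4a probes themselves were not among the 3.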

How the results depend on the processing

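The median ratio of the measured Cyp4a genes, 0.57, kept its sign under all 12 alternatives, at 0.26 to 0.92, and so did each gene's mean. Only the mean of Cyp4a12a moved by more than its replicate SD, to -0.30 with median centring and no loess. Adjusted calls numbered 0 as reported, 9632 with median centring and no loess, 889 when the channels were fitted separately with the array as a replicate block (8975 unadjusted), and 0 to 8764 with each replicate left out, the highest without replicate 2. Unadjusted calls, 8603 as reported, numbered 14646 without loess and 3119 to 13567 with each replicate left out. Of the listed genes 40 had an unadjusted p under 0.05 as reported, 63 without loess and 24 to 61 with each replicate left out. List medians also moved with median centring and no loess. The median went from 0.0074 to -0.12 for PPAR-alpha and its partners and from 0.0059 to -0.17 for mitochondrial and ketogenic targets. It went from 0.052 to -0.068 for other Cyp4 genes and from -0.0968 to -0.33 for redox partners and later enzymes. For the 58 targets together it was -0.034. The cause of these shifts was not tested. The range of Cyp4a14 over the 8 livers was 4.16 log2 units under both scalings tried. With 4 arrays and no dye swap, the number of arrays limits the precision, and near-identical copies limit what a probe can tell apart. The means of Vnn1, Fabp1, Plin2, Mogat1, Acot4, Slc25a20 and the cell type markers were not followed gene by gene across the alternatives. Among the other genes named in the text, the mean changed sign under 3 alternatives for Aldh3a2 and under 2 each for Ppara and Por. It changed sign under 1 each for Cpt1a (without replicate 2), Lpin1 (without replicate 4), Cyp4f14 (median centring) and Stil (Agilent's processed signals).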
